A study of Mus musculus with 16 samples.

Results

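The 45 genes described here encode the folding and secretory machinery of the endoplasmic reticulum (ER). They were taken from the deposited count table of mouse liver RNA by their symbols, as 45 of its 53465 genes, and they comprise ER chaperones, disulfide and prolyl isomerases, components of ER-associated degradation, the stress sensors and transcription factors that control them, the translocon with its signal peptidase and glycosylation partners, and the COPII coat. All 45 members passed the filter on low counts. Livers of C57BL/6 mice aged 29 to 30 weeks were profiled by non-stranded RNA sequencing in 4 groups of 4 mice. The CD_vehicle and CD_PFOA groups received a control diet (CD), and the HFD_vehicle and HFD_PFOA groups a high-fat diet (HFD), for 16 weeks before a further 8 weeks of vehicle or perfluorooctanoic acid (PFOA), a long-chain perfluorinated fatty acid analogue that activates the nuclear receptor PPAR alpha in rodent liver. No source used here gives the sex of the mice or the dose and route of PFOA, and a library is 1 mouse. The design addresses how PFOA and the diet that induces a steatotic liver act alone and together.

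Hepatocytes make most plasma proteins. In general such a protein enters the ER through the Sec61 translocon, loses its signal peptide, is folded and leaves in COPII vesicles. Many of these proteins, but not all, are also glycosylated there. Misfolded chains are returned to the cytosol for degradation. The sensors in the ER membrane, encoded by Ern1 (IRE1), Atf6 and Eif2ak3 (PERK), match the amount of this machinery to its load. IRE1 splices the mRNA of Xbp1, and XBP1 and ATF6 then bind promoter elements of chaperone genes. Counts per gene cannot show the splicing of Xbp1 or the state of the sensor proteins.

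Library totals ran from 14456524 to 25778125 counts. Levels are given as CPM, a gene's counts for each 1e+06 of its library after scaling by TMM, which assumes that most genes are unchanged. A gene was called at an edgeR quasi-likelihood adjusted p under 0.05 over 14998 genes tested. The members together took 0.605% to 1.92% of a library's counts. In the CD_vehicle group their summed level was 20693 CPM in mouse 1 and 9574, 11308 and 10670.0 CPM in mice 2 to 4. The library CD_vehicle 1 therefore stood apart: it lay above the other 3 livers of its group in 43 of 45 members, by a median of 0.70 on the log2 scale, Derl2 and Ern1 being the exceptions. It was also above them in 25 of 27 acute phase genes, by a median of 1.50, but in 28 of 63 constitutive plasma protein genes, by a median of 0.12. The median within-group SD of a member's log2 CPM was 0.38 in CD_vehicle and 0.15 without that library, against 0.12 for CD_PFOA mice, 0.09 for HFD_vehicle mice and 0.19 for HFD_PFOA mice. Medians on the control diet are therefore given with and without it for all members and for the chaperone, isomerase and degradation roles. The same holds for the constitutive plasma protein and acute phase genes. For the other roles and lists on the control diet the counts and medians in the text keep this library in. The control diet values of single genes outside the members keep it in as well. Of the 42 members called there, 12 had a log2 change over 1.5 times smaller without it, after rounding of the ratio. These are Hsp90b1, Dnajc3, Sdf2l1, Creld2, Pdia3, Pdia4, Sel1l, Syvn1, Derl1, Derl3, Xbp1 and Sec24d, and their values without it are given. Bhlha15 and Hyou1 lay at about 1.5 times, and their values without it are given too. Leaving out any other single library moved 0 called members by that much under PFOA in either diet.

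PFOA lowered nearly all of this machinery in both diets. The summed level was 6321, 6548, 6436 and 6742 CPM in CD_PFOA, below each of the 4 CD_vehicle livers. It was 11525, 11986, 11710.0 and 11497 CPM in HFD_vehicle and 8111, 6551, 6502 and 6058 CPM in HFD_PFOA, so that all 8 livers of PFOA-treated mice held less of these transcripts than any of the 8 vehicle livers. On the control diet 41 of 45 members fell, where 12.6% of all genes tested were called lower, 1 rose (Creb3l3), and Ern1, Sec61g and Spcs1 did not pass the test. The median log2 change was -0.97 over the members and -0.00 over all genes. Without CD_vehicle 1, 37 members fell with a median of -0.74 (1686 of 15397 genes were lower in that fit), and Derl1 (-0.29 with 16 libraries, -0.19 without that liver), Derl3, Fkbp2 and Sil1 were no longer called. The calls of Derl1, Fkbp2 and Sil1 did not depend on that liver alone. Over 23 alternative settings Derl1 lost its call in 14, and Fkbp2 and Sil1 in 7 each. On the high-fat diet 37 members fell, against a background of 7.91% called lower, 1 rose (again Creb3l3) and 7 did not pass (Sil1, Syvn1, Derl1, Derl3, Ern1, Sec61g and Spcs1); the median change was -0.75.

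The members were lowered in both diets more completely than genes were in general, as a description. They were chosen with earlier results of these data known. The difference from all genes, here and in the counts above, cannot be told apart from that choice. All 37 that fell on the high-fat diet were among the 41 that fell on the control diet, which is 100% of the first set and 90.2% of the second. Over all genes tested, 859 were lower in both, 72.4% of those lower on the high-fat diet and 45.4% of those lower on the control diet. Ranges of the 4 treated and 4 vehicle livers did not overlap for 36 members lower and 1 higher on the control diet, where 11.6% of all genes had such separated lower ranges. With HFD this held for 39 lower and 1 higher, where the share of all genes was 12.5%.

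**Figure D1:**
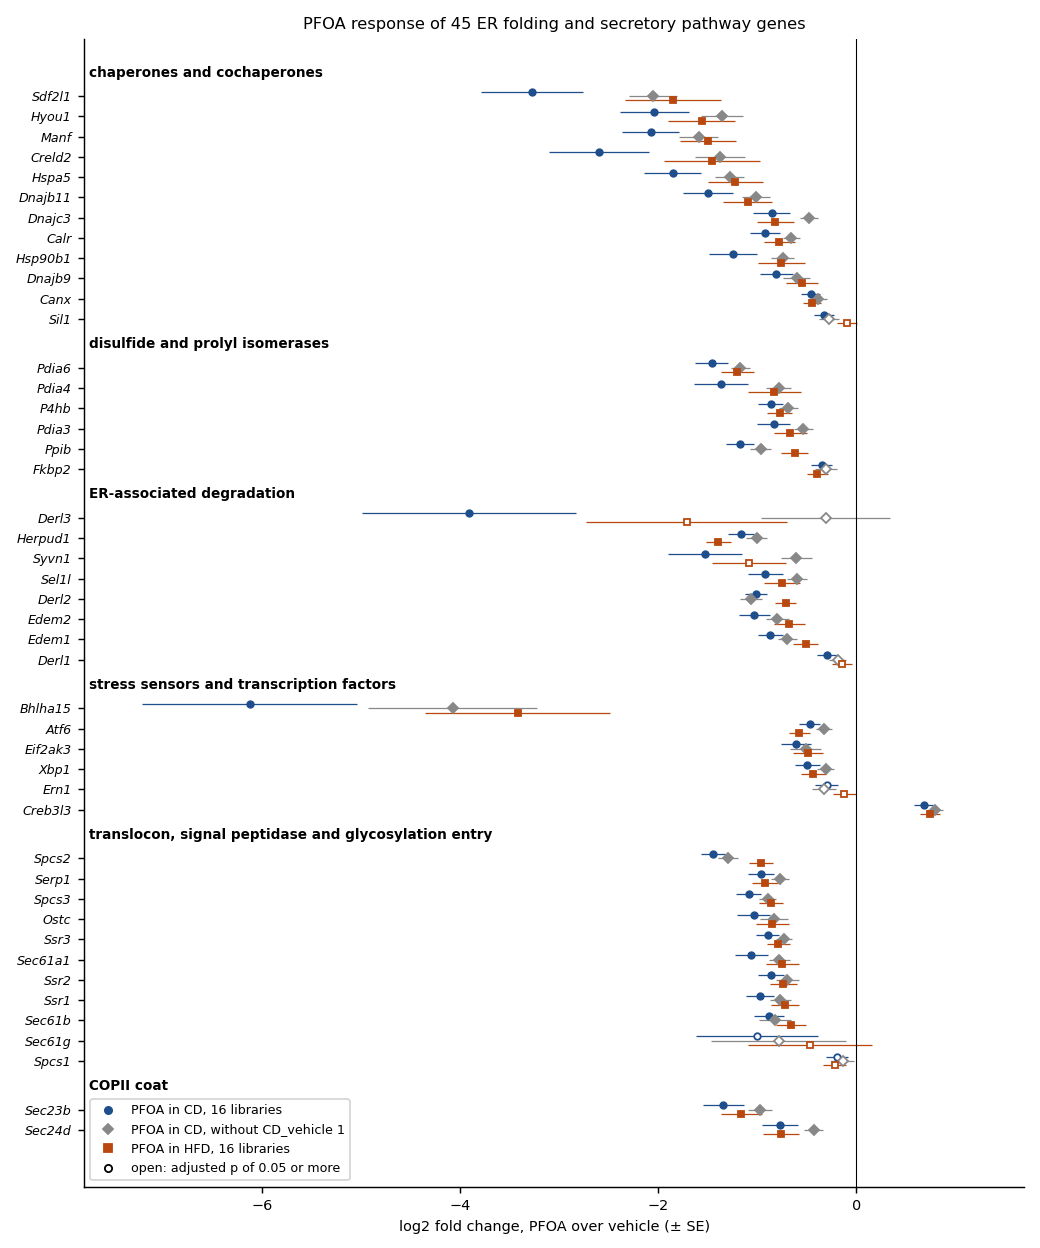
Log2 fold change of each of the 45 members under PFOA (x axis, with SE), grouped by role, on the control diet with 16 libraries (circles), on the control diet without CD_vehicle 1 (diamonds) and on the high-fat diet (squares); open symbols did not pass an adjusted p of 0.05. All members except Creb3l3 lie left of 0, and the circles of Derl3, Sdf2l1, Creld2 and Bhlha15 lie far left of their diamonds.

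Members that share a regulatory element were looked up in the RefSeq promoter sequences (build GRCm38.p6, 250 bases before the transcript start), which matched 36 of the 45 by symbol. The ER stress response element, CCAAT and CCACG separated by 9 bases, is known as a binding element of ATF6 with NF-Y. It was searched on both strands as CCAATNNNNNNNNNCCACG. It was found in 9 of the 36 members (25%) and in 18 of 10871 tested genes with a promoter (0.166%), a share that includes the members. The elements are shown because their share among the members can be set beside that among all genes; each is written 5′ to 3′ on the strand that holds it, with the fixed bases in capitals. Hsp90b1 carried 2 of them. The element of Hspa5 lay 65 to 47 bases before the start (chr2:34772025-34772043), that of Pdia6 98 to 80 (chr12:17266491-17266509), that of Dnajc3 105 to 87 (chr14:118937827-118937845) and that of Syvn1 44 to 26 (chr19:6046532-6046550). GENCODE starts Hspa5 further upstream, at chr2:34771970, so its element lies inside the gene there, and 120 of the 250 bases of its window are GENCODE exon.
Hspa5: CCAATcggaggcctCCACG
Hsp90b1, upstream element: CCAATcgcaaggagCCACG
Hsp90b1, downstream element: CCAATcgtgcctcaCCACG
Calr: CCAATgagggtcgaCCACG
Canx: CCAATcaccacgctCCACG
Creld2: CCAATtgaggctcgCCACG
Dnajc3: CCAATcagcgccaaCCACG
Pdia6: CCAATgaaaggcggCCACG
Syvn1: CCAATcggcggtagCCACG
Derl3: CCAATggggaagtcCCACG

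A second form, ATTGGNCCACG, was present in 1 of the 36 members, Herpud1, and in 7 of the 10871 tested genes (0.0644%). It lay 52 to 42 bases before the start (chr8:94386377-94386387). The core ACGTG, known from binding elements of XBP1, was in 15 of the 36 members (41.7%) and in 24.2% of tested genes. A match is a stretch of letters and not a measured binding site. The 250 bases before the start of Herpud1 (chr8:94386179-94386428, plus strand) are given with the second form in capitals, and those of Dnajc3 (chr14:118937682-118937931, plus strand) and Syvn1 (chr19:6046326-6046575, plus strand) with the ER stress response element in capitals; none of the 3 windows overlaps a GENCODE exon.
Herpud1: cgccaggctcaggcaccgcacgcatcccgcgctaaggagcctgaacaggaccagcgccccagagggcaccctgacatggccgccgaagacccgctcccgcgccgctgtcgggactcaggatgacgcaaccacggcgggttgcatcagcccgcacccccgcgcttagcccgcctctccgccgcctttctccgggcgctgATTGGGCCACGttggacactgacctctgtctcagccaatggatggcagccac
Dnajc3: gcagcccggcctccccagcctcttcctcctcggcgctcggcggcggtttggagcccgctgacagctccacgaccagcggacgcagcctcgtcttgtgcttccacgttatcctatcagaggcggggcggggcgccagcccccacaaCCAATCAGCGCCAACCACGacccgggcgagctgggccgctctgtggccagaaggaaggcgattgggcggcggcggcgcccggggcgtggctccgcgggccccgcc
Syvn1: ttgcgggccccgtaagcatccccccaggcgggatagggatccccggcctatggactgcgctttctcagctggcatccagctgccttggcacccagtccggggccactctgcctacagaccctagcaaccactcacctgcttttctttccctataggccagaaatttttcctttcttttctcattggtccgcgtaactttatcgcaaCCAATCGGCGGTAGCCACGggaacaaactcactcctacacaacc

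The 9 members with the element had a median log2 change under PFOA of -1.46 on the control diet and -1.08 on the high-fat diet, and the 27 matched members without it -0.92 and -0.71. Without CD_vehicle 1 the medians on the control diet were -0.65 with the element and -0.77 without it, so the order on that diet turned with this 1 library. Members without the element also fell, among them Sdf2l1, P4hb and Spcs2.

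Among the chaperones and cochaperones, all 12 fell under PFOA on the control diet (median log2 change -1.37, and -0.88 without CD_vehicle 1) and 11 fell on the high-fat diet (median -0.96). Hspa5 encodes BiP, the HSP70 of the ER lumen and the chaperone that holds the stress sensors inactive. Its level was 3089, 897, 1178 and 1049 CPM in CD_vehicle, and 422, 425, 429 and 441 CPM in CD_PFOA. In the HFD-fed mice it was 1192, 1209, 1247 and 1179 CPM with vehicle and 750.5, 451, 463 and 409 CPM with PFOA. The groups did not overlap in either diet, the 4 CD_PFOA livers lay close together, and HFD_PFOA 1 was the highest treated liver. Hspa5 fell by 1.86 ± 0.28 on the log2 scale (SE, edgeR adjusted p = 6.26e-05) on the control diet, by 1.28 ± 0.15 without CD_vehicle 1, and by 1.22 ± 0.28 (edgeR adjusted p = 0.00401) on the high-fat diet.

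Hsp90b1, which encodes the HSP90 of the ER (GRP94), showed the same arrangement at a smaller size. It was at 1983, 660.1, 808 and 768 CPM in CD_vehicle against 427, 448, 418 and 487 CPM in CD_PFOA, and at 865, 881, 907 and 856 CPM in HFD_vehicle against 657, 483, 500.2 and 441 CPM in HFD_PFOA. Its log2 change was -1.25 on the control diet, -0.74 there without CD_vehicle 1 (edgeR adjusted p = 5.41e-05) and -0.75 on the high-fat diet (edgeR adjusted p = 0.0344). With DESeq2 the adjusted p on the high-fat diet was 0.0740, and Creld2 and Pdia4 likewise lost their call there. These 3 genes also lost it when any 1 HFD library except HFD_PFOA 1 was left out, with edgeR adjusted p from 0.0613 to 0.132.

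Sdf2l1 and Manf had some of the largest changes of this role. SDF2L1 is a cofactor of BiP, and MANF is a secreted ER resident that binds it. Sdf2l1 was at 99.7, 11.4, 18.03 and 18.2 CPM in CD_vehicle and at 4.94, 4.35, 2.82 and 3.15 CPM in CD_PFOA. Manf was at 321, 89.6, 132 and 148 CPM in CD_vehicle and at 39.0, 43.5, 33.7 and 47.6 CPM in CD_PFOA. For both genes even the lowest vehicle liver, CD_vehicle 2, was above all 4 treated livers. On the high-fat diet Sdf2l1 went from 21.6, 26.3, 22.5 and 20.4 CPM to 8.68, 5.04, 7.27 and 4.19 CPM, and Manf from 139, 152, 134 and 134 CPM to 76.7, 43.5, 38.5 and 39.2 CPM. The change of Sdf2l1 was -3.27 ± 0.51 (log2, SE) on the control diet with 16 libraries, -2.05 ± 0.24 without CD_vehicle 1, and -1.85 ± 0.49 on the high-fat diet; that of Manf was -2.08 ± 0.29, -1.59 ± 0.20 and -1.50 ± 0.28.

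Calr and Canx encode calreticulin and calnexin, the lectin chaperones that retain newly glycosylated proteins. Calr was at 1768, 889, 1002 and 1053 CPM in CD_vehicle and at 571, 675, 621 and 625 CPM in CD_PFOA, a fall of 0.92 ± 0.15 on the log2 scale (edgeR adjusted p = 0.000151), or of 0.65 without CD_vehicle 1. In HFD-fed mice Calr fell by 0.77 ± 0.15 (edgeR adjusted p = 0.00114). Canx changed less: its means on the control diet were 438 ± 45.6 CPM (SD, n = 4) with vehicle and 318 ± 30.2 with PFOA, those on the high-fat diet 441 ± 13.99 and 323 ± 23.9, and it fell by 0.46 and 0.45 on the log2 scale. The J-domain cochaperones of BiP were also lower, Dnajb11 by 1.50 and 1.09, Dnajc3 by 0.85 and 0.82 and Dnajb9 by 0.81 and 0.55. Without CD_vehicle 1 the control diet changes were -1.01 for Dnajb11, -0.48 for Dnajc3 and -0.60 for Dnajb9, each still called. Dnajb9 was at 251, 141, 178 and 149 CPM in CD_vehicle, 112, 95.8, 103 and 100.5 CPM in CD_PFOA, 168, 177, 167 and 152 CPM in HFD_vehicle and 148, 124, 92.0 and 90.2 CPM in HFD_PFOA. Its lowest vehicle and highest treated livers on the high-fat diet were thus close together without overlapping. The nucleotide exchange factor Hyou1 fell by 2.04 (1.36 without CD_vehicle 1) and 1.56 and Creld2, a secreted ER protein, by 2.60 and 1.46, and the change of Creld2 on the control diet was -1.38 without CD_vehicle 1. Sil1, the other nucleotide exchange factor, ranged only from 35.4 to 58.0 CPM over all 16 livers.

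**Figure D2:**
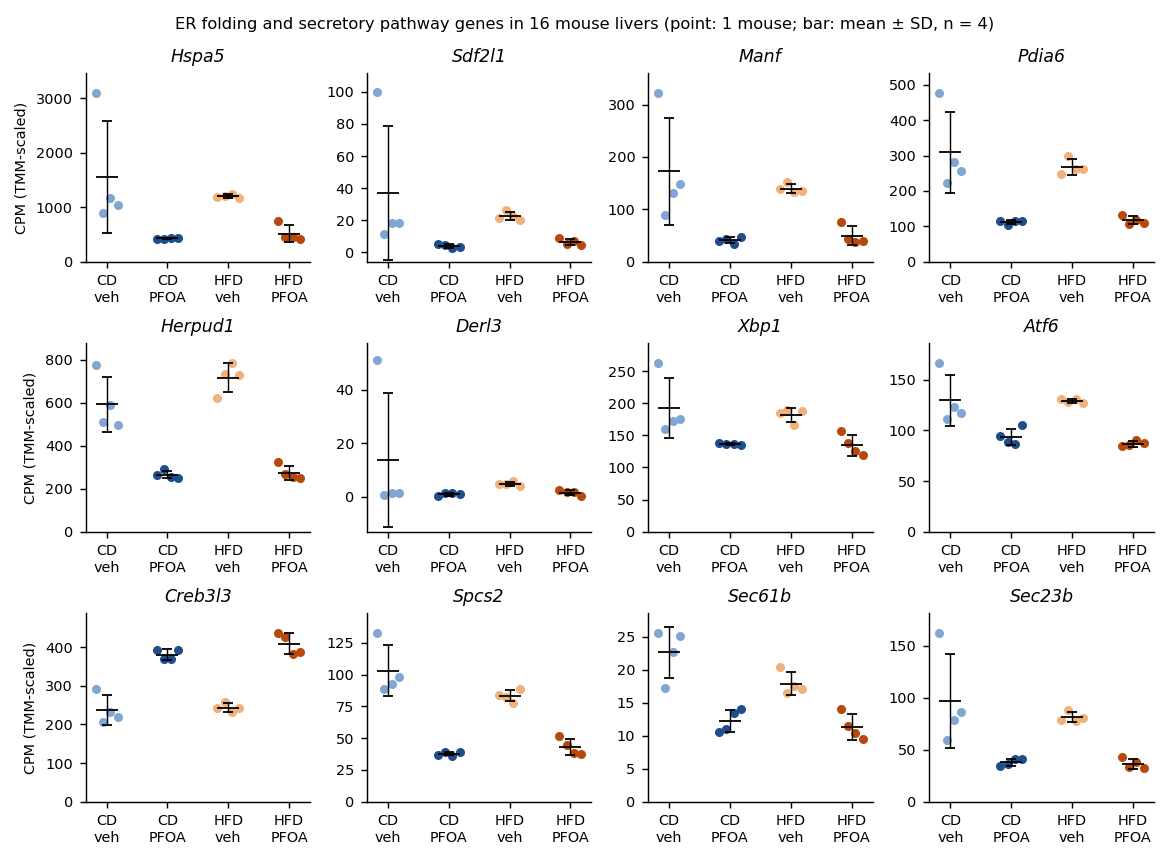
Level of 12 members in CPM (y axis, linear, each panel with its own scale) in the 4 groups; a point is 1 mouse and the bar the mean with SD over 4 mice. Vehicle livers lie above PFOA livers in each panel apart from Creb3l3, where they lie below, and Derl3, where the control diet groups overlap; the first CD_vehicle point of Hspa5, 3089 CPM, shows the library that stood apart.

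The 6 disulfide and prolyl isomerases all fell in both diets (median log2 change -1.02 on the control diet, -0.73 without CD_vehicle 1, and -0.72 on the high-fat diet). P4hb encodes protein disulfide isomerase itself and was the member with the most counts per length, at 594 CPM per kb of exon in CD_vehicle, ahead of Calr at 409, Hspa5 at 367 and Hsp90b1 at 262 CPM per kb. Under PFOA on the control diet P4hb remained first at 326 CPM per kb and Hspa5 was at 101 CPM per kb, below Pdia3 at 123, Herpud1 at 114 and Hsp90b1 at 110.3. In CD_vehicle 2 to 4 P4hb was at 525 CPM per kb, Calr at 341, Hspa5 at 246, Herpud1 at 228.7 and Hsp90b1 at 185 CPM per kb, so that without mouse 1 Hsp90b1 was below Herpud1 with vehicle as well. P4hb was at 2291, 1431, 1644 and 1430.2 CPM in CD_vehicle and at 885, 904, 981 and 963 CPM in CD_PFOA. In the HFD-fed livers it was at 1576, 1640.4, 1555 and 1585 CPM with vehicle and 1121, 890.3, 885 and 823 CPM with PFOA. The treated livers were below all vehicle livers in both diets, with falls of 0.86 ± 0.13 and 0.77 ± 0.13 on the log2 scale.

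Pdia6, an isomerase that also attenuates IRE1, had the smallest p of the isomerases. It was at 476, 222.01, 281 and 257 CPM in CD_vehicle and at 115, 105, 116 and 114 CPM in CD_PFOA. With vehicle on the high-fat diet it was at 249, 299.9, 261 and 262 CPM, and with PFOA at 132, 107, 119 and 109.6 CPM. Treated and vehicle livers were far apart in both diets. It fell by 1.46 ± 0.17 (edgeR adjusted p = 2.07e-06) and by 1.20 ± 0.17 (edgeR adjusted p = 2.82e-05), and without CD_vehicle 1 by 1.17 ± 0.10 on the control diet. Pdia4 was at 719.9, 205, 264 and 251 CPM in CD_vehicle against 137, 152, 125 and 142 CPM in CD_PFOA, and it fell by 1.37 and, on the high-fat diet, by 0.83. Without CD_vehicle 1 its control diet change was -0.78 (edgeR adjusted p = 0.000127). Ppib, the ER cyclophilin, was at 81.9, 51.7, 49.5 and 50.8 CPM in CD_vehicle, 26.9, 27.9, 25.8 and 23.2 CPM in CD_PFOA, 38.4, 42.5, 40.9 and 41.6 CPM in HFD_vehicle and 31.1, 24.4, 27.5 and 23.1 CPM in HFD_PFOA. All CD_vehicle livers were above all HFD_vehicle livers, and its falls under PFOA were 1.17 and 0.62. A share of 25% of its exon bases overlaps those of Snx22, from which reads of a non-stranded library cannot be told apart. Exon overlap with other genes was 16.3% for Spcs1, 15.7% for Hsp90b1, 12.8% for Ssr2, 9.25% for Manf and at most 8.16% for the remaining members. Pdia3 fell by 0.83 and 0.66, and by 0.53 on the control diet without CD_vehicle 1. The prolyl isomerase Fkbp2 had the smallest changes of this role, at -0.35 and -0.39.

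The genes of ER-associated degradation fell in 8 of 8 cases on the control diet (median -1.02), in 6 of 8 without CD_vehicle 1 (median -0.65) and in 5 of 8 on the high-fat diet (median -0.73). Herpud1, an ER membrane protein that organises the HRD1 ubiquitin ligase, showed the largest high-fat diet fall of this role among those called. Its level was 776, 512, 592 and 497 CPM in CD_vehicle, 264, 291, 256 and 252 CPM in CD_PFOA, 621, 736, 783 and 729.7 CPM in HFD_vehicle and 322, 268, 255 and 248 CPM in HFD_PFOA. The 4 CD_PFOA livers lay within the range of the 4 HFD_PFOA livers, of which HFD_PFOA 1 was the highest, while all 4 HFD_vehicle livers were above CD_vehicle 2 to 4. The falls were 1.16 ± 0.13 (edgeR adjusted p = 1.34e-06) and 1.39 ± 0.13 (edgeR adjusted p = 1.84e-07) on the log2 scale.

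Derl2, a derlin of the retrotranslocation complex, was not raised in CD_vehicle 1. It was at 116, 137, 148 and 121 CPM in CD_vehicle, 55.9, 66.2, 65.0 and 72.5 CPM in CD_PFOA, 99.0, 93.4, 102 and 97.1 CPM in HFD_vehicle and 67.4, 58.9, 47.9 and 64.9 CPM in HFD_PFOA. It fell by 1.01 ± 0.11 and 0.71 ± 0.11, and by 1.06 without CD_vehicle 1. Edem1 and Edem2, which hand misfolded glycoproteins to degradation, fell by 0.87 and 1.03 on the control diet and by 0.51 and 0.67 on the high-fat diet. Edem1 was at 383, 247, 274 and 243 CPM in CD_vehicle against 136, 158, 159.7 and 175 CPM in CD_PFOA. Edem2 was at 71.7, 36.9, 42.8 and 47.7 CPM against 24.0, 27.4, 22.3 and 23.9 CPM. Both pairs of groups were separate. Sel1l, the adaptor of the HRD1 ligase, fell by 0.92 and 0.75, and by 0.59 on the control diet without CD_vehicle 1. Syvn1, which encodes HRD1, changed by -1.53 on the control diet and by -0.60 there without CD_vehicle 1 (edgeR adjusted p = 0.00706). On the high-fat diet its change was -1.08 with separate ranges and an edgeR adjusted p of 0.0518, or 1.39e-05 in the fit without CD_vehicle 1, whose spread enters the shared estimate.

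Derl3 was the member most dependent on 1 liver. It was at 51.2, 0.687, 1.22 and 1.45 CPM in CD_vehicle and at 0.208, 1.28, 1.22 and 0.900 CPM in CD_PFOA. CD_vehicle 1 was 45.8 times the mean of the other 3, and those 3 overlapped the treated livers. The control diet change was -3.91 ± 1.08 (edgeR adjusted p = 0.0116) with that liver and -0.31 ± 0.65 (edgeR adjusted p = 0.794) without it. Derl3 in the HFD-fed livers was at 4.91, 4.90, 5.73 and 3.91 CPM with vehicle and 2.41, 1.597, 1.83 and 0.0783 CPM with PFOA, a change of -1.71 that did not pass in the fit of all 16 libraries (edgeR adjusted p = 0.292) and did without CD_vehicle 1 (edgeR adjusted p = 0.0447).

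The sensors and transcription factors had smaller median changes than the other roles. On the control diet 4 of these 6 genes fell and 1 rose, on the high-fat diet likewise 4 and 1, with medians of -0.48 and -0.46. Atf6 was at 166, 111, 123 and 118 CPM in CD_vehicle, 94.0, 88.9, 86.2 and 105 CPM in CD_PFOA, 131, 128, 131 and 127 CPM in HFD_vehicle and 84.1, 85.4, 90.5 and 87.1 CPM in HFD_PFOA. Xbp1 was at 262, 159.5, 173 and 175 CPM in CD_vehicle, 139, 136, 136 and 135 CPM in CD_PFOA, 185, 189, 166 and 188 CPM in HFD_vehicle and 156, 138, 125 and 119 CPM in HFD_PFOA. Both were separate between vehicle and PFOA in each diet, Atf6 with falls of 0.47 ± 0.11 and 0.57 ± 0.11 and Xbp1 with falls of 0.50 ± 0.13 and 0.44 ± 0.13 on the log2 scale. Without CD_vehicle 1 the control diet change of Xbp1 was -0.31 (edgeR adjusted p = 0.0171). Eif2ak3 was at 33.6, 19.3, 27.02 and 32.9 CPM in CD_vehicle and 17.2, 18.1, 16.8 and 22.1 CPM in CD_PFOA, which overlapped, and it fell by 0.61. Without CD_vehicle 1 and CD_vehicle 4 that change was -0.33 and no longer called (edgeR adjusted p = 0.153). Among HFD-fed mice it was at 33.9, 36.3, 30.7 and 36.2 CPM with vehicle and 26.9, 28.5, 21.2 and 21.3 CPM with PFOA, a fall of 0.49.

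Ern1 did not pass in either diet. It was at 82.8, 108, 95.7 and 68.4 CPM in CD_vehicle, 78.6, 65.7, 66.2 and 78.7 CPM in CD_PFOA, 73.5, 72.2, 75.9 and 64.1 CPM in HFD_vehicle and 65.9, 64.4, 70.7 and 61.5 CPM in HFD_PFOA. Its control diet change of -0.30 had an edgeR adjusted p of 0.0720, and -0.40 with 0.00676 when CD_vehicle 4 was left out; on the high-fat diet the change was -0.12.

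Creb3l3 was the only member that rose. It encodes CREBH, a liver-enriched factor held in the ER membrane that, once cleaved, regulates genes of lipid metabolism and the acute phase response. It was at 293, 206, 232 and 218.7 CPM in CD_vehicle and at 392, 369, 369.7 and 393 CPM in CD_PFOA. With vehicle on the high-fat diet it was at 242, 259, 231 and 242 CPM, and with PFOA at 436, 427, 382 and 389 CPM. Every treated liver was above every vehicle liver. It rose by 0.68 ± 0.10 (edgeR adjusted p = 3.19e-05) and 0.75 ± 0.10 (edgeR adjusted p = 1.7e-05) on the log2 scale, and by 0.80 on the control diet without CD_vehicle 1. In these comparisons 11.8% and 8.6% of all genes were called higher.

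Bhlha15 encodes MIST1, a transcription factor of professional secretory cells, and was near the limit of detection. It was at 17.8, 0.504, 0.796 and 2.61 CPM in CD_vehicle and at 0, 0.0828, 0 and 0.204 CPM in CD_PFOA. A count of 0 allows up to 0.125 CPM in CD_PFOA 1 and 0.126 CPM in CD_PFOA 3 (3 counts, counting error only). Its values with HFD were 2.16, 3.77, 2.33 and 1.46 CPM with vehicle and 0.254, 0.123, 0.311 and 0.196 CPM with PFOA. All vehicle livers were above all treated livers in each diet. The fitted log2 changes of -6.13 (-4.08 without CD_vehicle 1) and -3.42 depend on the prior count and are no bounds.

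At the entry to the ER, 9 of 11 translocon, signal peptidase and glycosylation genes fell in each diet (medians -0.97 and -0.75). The signal peptidase subunits differed among themselves. Spcs2 had the smallest p of all members on the control diet, at 132, 88.7, 92.7 and 97.9 CPM in CD_vehicle and 37.0, 39.5, 36.3 and 38.8 CPM in CD_PFOA. It was at 84.0, 82.6, 78.0 and 88.5 CPM in HFD_vehicle and 51.4, 44.3, 38.2 and 37.7 CPM in HFD_PFOA. The 2 groups of each diet were far apart, with falls of 1.44 ± 0.12 (edgeR adjusted p = 3.51e-08) and 0.96 ± 0.12 (edgeR adjusted p = 9.14e-06) on the log2 scale. Spcs3 fell by 1.08 and 0.86, from 136, 85.4, 83.5 and 92.3 CPM to 42.9, 46.8, 48.9 and 48.5 CPM on the control diet. Spcs1 overlapped in all comparisons, at 39.4 ± 3.52 CPM (SD, n = 4) with vehicle and 34.5 ± 4.58 with PFOA on the control diet and 36.8 ± 2.84 and 31.7 ± 4.35 on the high-fat diet, with changes of -0.19 and -0.22; 16.3% of its exon bases overlap those of Glt8d1.

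Of the Sec61 channel, the pore subunit Sec61a1 fell by 1.06 and 0.75. Sec61b was at 25.5, 17.2, 22.7 and 25.1 CPM in CD_vehicle, 10.6, 11.01, 13.4 and 13.99 CPM in CD_PFOA, 20.5, 16.4, 17.6 and 17.1 CPM in HFD_vehicle and 14.1, 11.5, 10.3 and 9.52 CPM in HFD_PFOA, with falls of 0.88 ± 0.15 and 0.66 ± 0.15. The third subunit, Sec61g, was listed at 0.0510 to 2.42 CPM over the 16 livers and did not pass in either diet, with SEs of 0.61 and 0.63 on the log2 scale. Ssr1, Ssr2 and Ssr3 of the translocon-associated complex fell by 0.97, 0.86 and 0.90 on the control diet and by 0.72, 0.74 and 0.79 on the high-fat diet. Ssr3 was at 624, 399, 437 and 423 CPM in CD_vehicle against 235.7, 255, 248 and 275 CPM in CD_PFOA. Serp1, a translocon-associated stabiliser of membrane proteins, was at 551, 325, 374 and 358 CPM in CD_vehicle, 185, 199, 216 and 225.1 CPM in CD_PFOA, 397, 400.1, 417 and 373 CPM in HFD_vehicle and 241, 204, 202 and 190.4 CPM in HFD_PFOA. Its groups were separate, with falls of 0.96 and 0.92. Ostc, an oligosaccharyltransferase subunit, fell by 1.03 and 0.85.

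Both COPII members fell in both diets. Sec23b, of the inner coat, was at 162, 59.4, 78.2 and 86.8 CPM in CD_vehicle, 34.6, 35.9, 41.4 and 40.8 CPM in CD_PFOA, 78.5, 88.4, 78.1 and 80.9 CPM in HFD_vehicle and 42.6, 33.0, 38.2 and 32.0 CPM in HFD_PFOA. Sec24d, a cargo adaptor, was at 244, 104, 122 and 128 CPM in CD_vehicle, 86.1, 82.5, 87.3 and 94.6 CPM in CD_PFOA, 163, 175, 146 and 179 CPM in HFD_vehicle and 106, 104, 86.4 and 95.3 CPM in HFD_PFOA. No treated liver reached a vehicle liver of its diet for either gene. Sec23b fell by 1.34 ± 0.20 and 1.16 ± 0.20, and Sec24d by 0.77 ± 0.18 and 0.76 ± 0.18, on the log2 scale; without CD_vehicle 1 the control diet changes were -0.97 and -0.43.

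**Figure D3:**
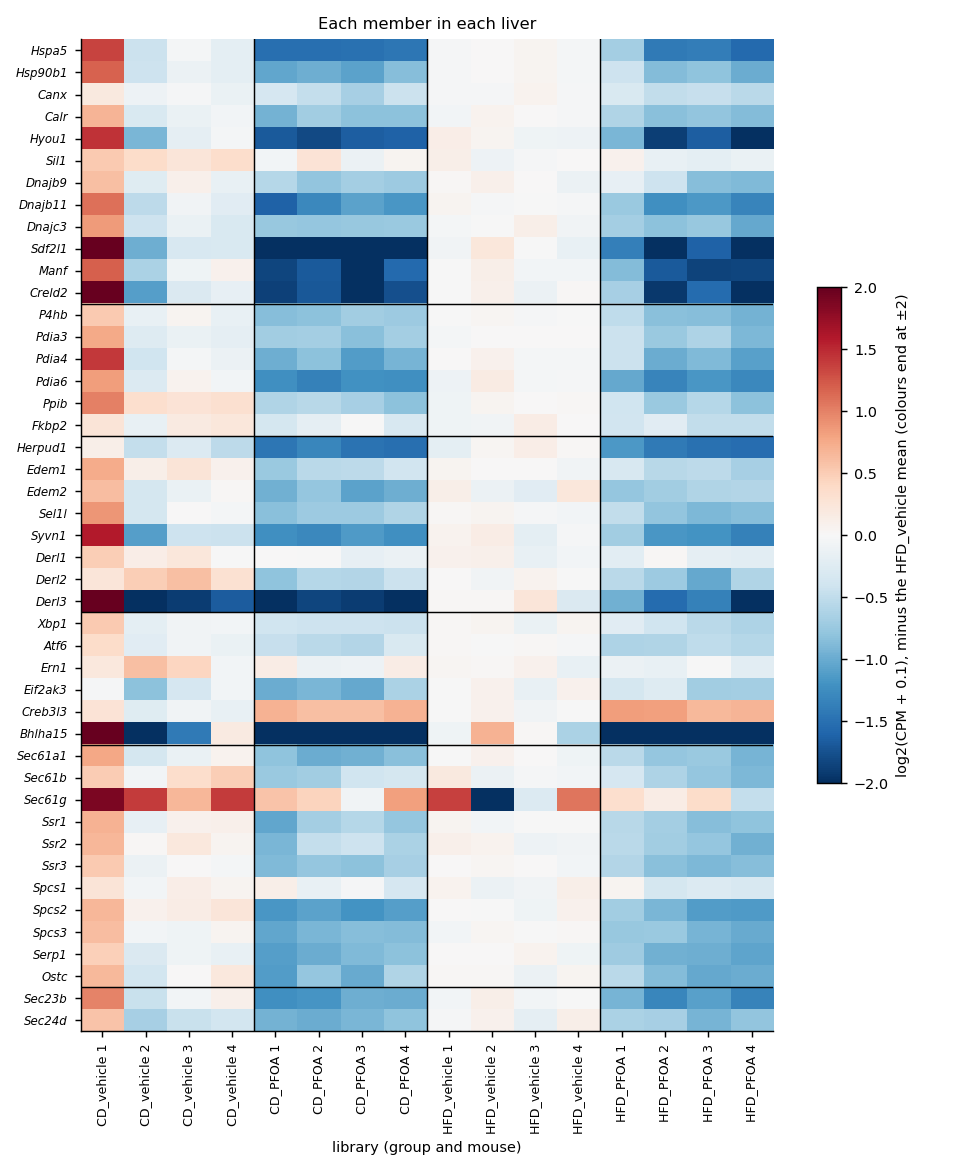
Log2(CPM + 0.1) of each member (rows, grouped by role) in each of the 16 livers (columns), minus the mean of the HFD_vehicle group, with colours that end at ±2. The CD_PFOA and HFD_PFOA columns are blue in nearly all rows, Creb3l3 is red there, and the CD_vehicle 1 column is red where CD_vehicle 2 to 4 are pale.

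Genes of the same pathway outside the 45 members moved in the same direction in a smaller share. The members and the lists were chosen with earlier results of these data known, so the difference in share cannot be told apart from that choice. Over all genes tested, 12.6% were called lower on the control diet and 7.91% on the high-fat diet. Of 30 other ER lumen folding genes 13 fell on the control diet (median log2 change -0.55) and 11 on the high-fat diet (median -0.33), and 0 rose in either. Among them Ero1lb, which reoxidises disulfide isomerase, fell by 1.63 and 1.18, Hspa13 by 1.24 and 0.92, Uggt1, the glycoprotein folding sensor, by 0.98 and 0.78, and Erp44 by 0.75 and 0.45. Of 22 other degradation genes 7 and 5 fell and 0 rose, with Os9, a lectin of the HRD1 complex, lower by 0.72 and 0.50 and Ube2g2 by 0.99 and 0.73. Of 26 other translocon, signal recognition particle and oligosaccharyltransferase genes 16 fell and 1 rose (Sec61a2) on the control diet, and 12 fell on the high-fat diet. The oligosaccharyltransferase subunits Rpn1 and Ddost fell by 1.11 and 0.89 on the control diet, and the translocon partner Tram1 by 1.11. In vesicle traffic, 14 of 27 other COPII and export genes fell in each diet, while Tmed5 rose by 0.84 and 0.59 and, on the high-fat diet, Sar1b rose too. The cargo receptor Lman1 fell by 0.80 and 0.73. COPI and retrieval genes, which return ER proteins from the Golgi, fell in 12 of 17 cases on the control diet and 8 of 17 on the high-fat diet, with Arcn1 lower by 0.68 and 0.55 and the KDEL receptor Kdelr2 by 0.68 and 0.58.

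Genes of the integrated stress response, the branch downstream of PERK and other kinases, did not share this direction. Of 18 tested, 9 rose and 3 fell on the control diet, where 11.8% of all genes were called higher and 12.6% lower. On the high-fat diet 7 rose and 3 fell, where these shares were 8.6% and 7.91%. Trib3, a target of ATF4 and CHOP, rose by 2.97 and 1.89 on the log2 scale, Vldlr by 2.90 and 2.25 and Nupr1 by 2.25 and 1.99, whereas Atf4 itself fell by 0.55 on the control diet and changed by -0.10 without passing on the high-fat diet.

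The secreted cargo fell beside the machinery. Of 63 constitutive plasma protein genes tested, 53 fell and 1 rose (Serpina6) under PFOA on the control diet, with a median log2 change of -0.67, and 34 fell and 1 rose (Cpn1) on the high-fat diet, with a median of -0.40. The members' medians of -0.97 and -0.75 were on the same side and larger in size. On the control diet the summed level of these 63 genes ran from 175500 to 205600 CPM with vehicle and 104100 to 123000 CPM with PFOA, and on the high-fat diet from 132700 to 149100 CPM and 91360 to 112800 CPM. Without CD_vehicle 1 the control diet count was again 53 lower, with 0 higher and a median of -0.61, beside -0.74 for the members. F11, coagulation factor XI, fell by 2.41 and 1.33, C1s1, a complement protease, by 1.18 and 1.13, F7 by 1.65 and 0.81 and Ahsg, fetuin-A, by 0.88 and 0.70.

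Acute phase genes depended on CD_vehicle 1. On the control diet 15 of 27 fell and 0 rose (median -1.12), but without that liver 11 of 28 fell and 2 rose (median -0.30). On the high-fat diet 7 of 27 fell (median -0.59). With CD_vehicle 1 kept in, Serpina3k fell by 2.48 and 1.52, Serpina3m by 1.83 and 1.74 and Crp by 0.93 and 0.59. Fgg, the fibrinogen gamma chain, fell by 1.37 on the control diet and changed by -0.53 without passing on the high-fat diet. The spread in CD_vehicle was wide, at 3707 ± 1277 CPM (mean, SD) for Serpina3k and 4630 ± 2309 CPM for Fgg. The control diet falls of these genes are therefore not compared in size with those on the high-fat diet. In HFD_PFOA 1, the treated liver with the highest member sum, 36 of 45 members and 57 of 63 constitutive plasma protein genes were above the other 3 livers of its group, by medians of 0.30 and 0.32. Without HFD_PFOA 1 the count of members lower on the high-fat diet was again 37.

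**Figure D4:**
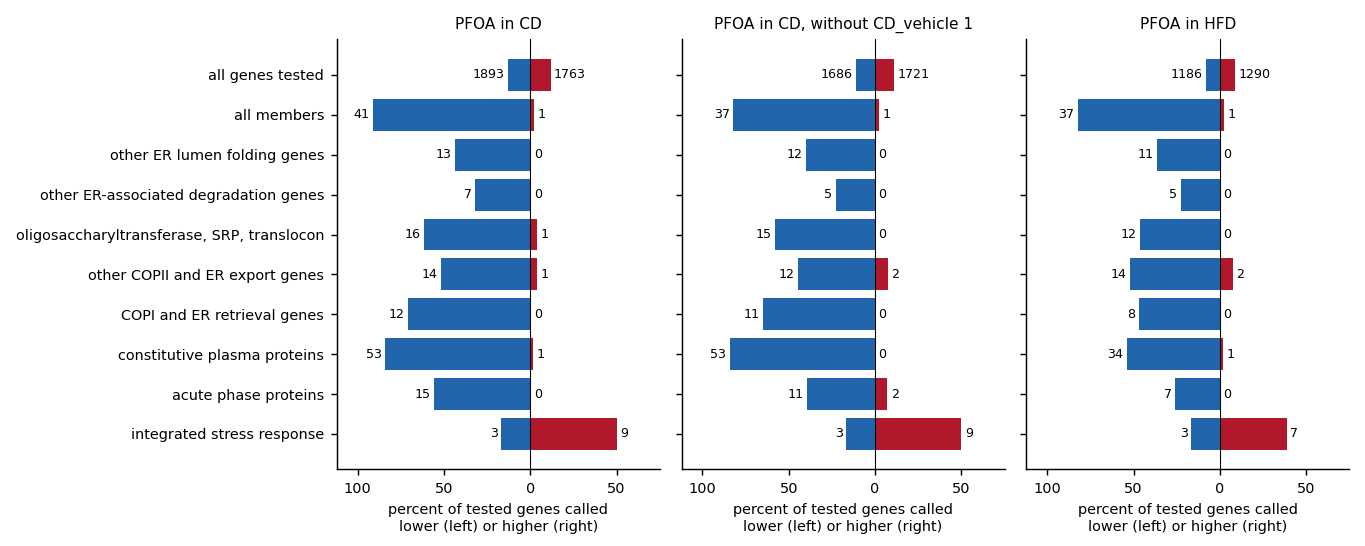
Percent of tested genes called lower (left, blue) or higher (right, red) under PFOA in each gene list, with the number of genes at the bar ends, on the control diet with 16 libraries, on the control diet without CD_vehicle 1 and on the high-fat diet. The members and the constitutive plasma proteins have the largest lower shares on the control diet (41 of 45 and 53 of 63 genes), and the acute phase bar shortens from 15 to 11 genes when CD_vehicle 1 is left out.

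Markers of the cell types a liver sample can hold were read beside these results. Hepatocyte markers were also lower under PFOA: 7 of 10 fell and 1 rose (Tdo2) on the control diet, and 6 fell and 1 rose on the high-fat diet, with sums of 15600 to 23020 CPM with vehicle and 14360 to 14910 CPM with PFOA on the control diet and 13400 to 16470 and 11910 to 14840 CPM on the high-fat diet; Cps1 fell by 1.36 and 1.11, and Cyp2e1 changed by 0.11 and 0.24 without passing. In bulk tissue, fewer hepatocytes and less RNA of a gene per hepatocyte cannot be told apart. Derl3 and Bhlha15 are known to be abundant in plasma cells and in pancreatic acinar cells. B and plasma cell markers summed to 662 CPM in 1 CD_vehicle liver, mouse 4, and the sum had a median of 29.9 CPM in that group and lay between 31.9 and 70.4 CPM in the other 3 groups. In CD_vehicle 4 they were above the mean of the other livers of the group by a median of 4.50 on the log2 scale. The members had a median difference of -0.18 there, against a mean that includes CD_vehicle 1. The member sums were 9574, 11308 and 10670 CPM in mice 2 to 4. In CD_vehicle 1, where Derl3 and Bhlha15 were high, the B and plasma cell markers summed to 26.8 CPM, beside 33.0 and 19.6 CPM in mice 2 and 3. Their median log2 difference of -1.49 in CD_vehicle 1 is against a mean that includes mouse 4. Of 13 exocrine pancreas markers, Prss2, Cpa1, Pnlip and Clps among others, 11 or 12 were at 0 in all livers of each group, and their sum reached at most 2.67 CPM, where a count of 0 allows 0.115 to 0.2 CPM per gene and library. Of 9 B and plasma cell markers tested, Igkc (-3.29, edgeR adjusted p = 0.0103) and Jchain (-2.98, edgeR adjusted p = 0.0240) fell under PFOA on the control diet, and without CD_vehicle 4 the count was 0 lower and 2 higher. Macrophage markers passed in 0 of 12 cases under PFOA by edgeR in either diet. T and NK cell and neutrophil markers passed in 0 of 7 and 0 of 3 cases. Of 8 sinusoidal endothelial markers 2 rose and 1 fell on the control diet and 0 passed on the high-fat diet; of 10 stellate cell markers 2 rose on the control diet and 1 fell on the high-fat diet, and of 8 cholangiocyte markers 2 fell on the high-fat diet. Without CD_vehicle 4, 3 macrophage, 1 T and NK cell and 4 stellate cell markers rose on the control diet. The part of cell composition in the members' change was not tested.

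Between the diets few members passed, and which ones depended on the libraries kept in. With vehicle, 3 members were lower on the high-fat diet than on the control diet, Sil1 by -0.37, Ppib by -0.52 and Derl2 by -0.41 (log2), and 0 were higher, against a background of 10.4% called (5.21% lower and 5.19% higher). Ranges were separate for 5 members lower and 0 higher, beside 7.21% and 7.25% of all genes. The median of the 45 was -0.22, with 40 negative and 5 positive. Without CD_vehicle 1 the median was 0.13, with 13 negative and 32 positive, 27 members turned sign, 1 member was lower (Derl2) and 4 were higher: Derl3 by 2.11, Syvn1 by 0.62, Sec24d by 0.49 and Herpud1 by 0.43. The direction of most members between the diets thus turned on CD_vehicle 1. Leaving out 1 library at a time, 5.72% to 14.8% of all genes tested passed in this comparison. Without CD_vehicle 1 and CD_vehicle 4, 5 members were higher and 2 lower, beside 1283 higher and 1080 lower of 15968 genes. The members called without CD_vehicle 1 are therefore not read as particular to this pathway. With library totals as the scaling in place of TMM, 0 members were lower and 2 higher, and that scaling moved the median of all genes by 0.22 in this comparison. Leaving out HFD_vehicle 4 left 0 members called. Sil1 also lost its call without CD_vehicle 1, HFD_vehicle 2 or HFD_vehicle 3, and Ppib without CD_vehicle 1 or HFD_vehicle 1. Derl2 lost it without CD_vehicle 2, CD_vehicle 3 or HFD_vehicle 2. Markers of other cell types moved in the same comparison. Macrophage markers were higher on the high-fat diet in 6 of 12 cases (3 without CD_vehicle 1), with Cd68 at 1.58, Cd5l at 1.24 and Lyz2 at 1.21 on the log2 scale, and stellate cell markers in 6 of 10 cases, with Col1a1 at 1.75 and Col3a1 at 1.48. Hepatocyte markers were lower in 6 of 10 cases, among them Slc10a1 by -1.48 and Tat by -0.99, and their part in the members' difference was not tested. Constitutive plasma protein genes were lower on the high-fat diet in 39 of 63 cases (34 of 63 without CD_vehicle 1).

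**Figure D5:**
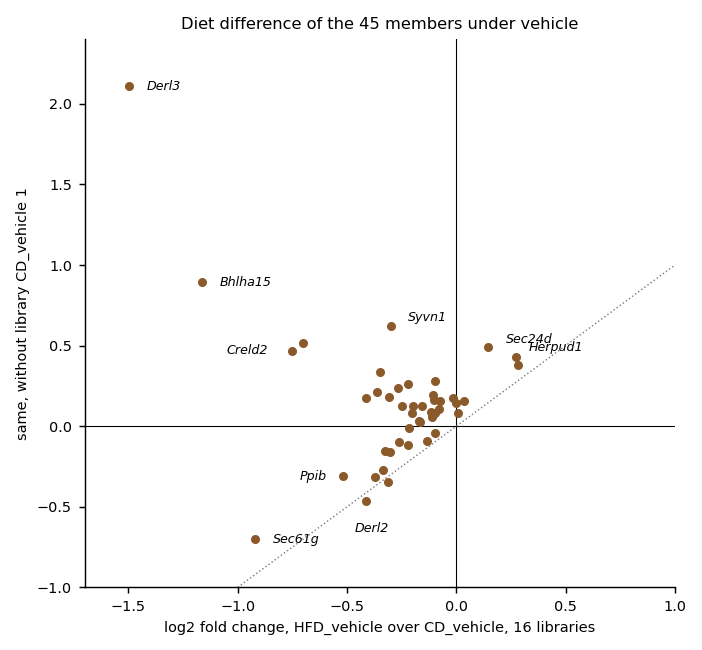
Log2 fold change of each member between HFD_vehicle and CD_vehicle with all 16 libraries (x axis) and without CD_vehicle 1 (y axis); the dotted line marks equal values. Points in the upper left quadrant changed sign, and Derl3 moved from -1.50 to 2.11.

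Between the treated groups the diets were close. Under PFOA 0 of 45 members passed by edgeR between HFD and CD, where 0.06% of all genes did (0.0467% higher, 0.0133% lower), ranges were separate for 0 members lower and 1 higher beside 3.53% and 4.15% of all genes, 1 member had an unadjusted p under 0.05, and DESeq2 also called 0. The summed member level overlapped, at 6058 to 8111 CPM in HFD_PFOA and 6321 to 6742 CPM in CD_PFOA. The direct test of whether PFOA acted differently in the 2 diets, the interaction, also called 0 members by edgeR and 0 by DESeq2, against 0.207% of all genes by edgeR (0.0667% higher and 0.14% lower), with 2 members at an unadjusted p under 0.05 and a smallest adjusted p of 0.254. These 2 were Spcs2 (interaction log2 0.48 ± 0.17) and Ppib (0.55 ± 0.20), whose falls were larger on the control diet. With all libraries the fall was larger on the control diet in 41 of 45 members, and without CD_vehicle 1 in 19 of 45, with 0 called and a smallest adjusted p of 0.243. A p that misses the threshold does not show that the members responded alike in both diets.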

How the data were processed

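Liver RNA of 16 mice was sequenced from non-stranded libraries, per the labels' protocols. The submitters' processing notes name STAR 2.5.2b, featureCounts from Subread 1.6.0, Trimmomatic 0.33 and bcl2fastq 2.20.0.422, and the build GRCm38 (mm10). The annotation release is not given in the sources. The deposited values are raw counts per gene, whole numbers for 53465 genes and 16 libraries, of which 25509 genes are 0 throughout. Each of the 16 columns was matched to a mouse by its name. Groups follow the treatment label, and replicate numbers follow the order of records.

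The filterByExpr function of edgeR 4.0.16 kept 14998 genes, which were scaled by TMM and fitted in 1 quasi-likelihood model with a mean per group (12 residual degrees of freedom, common biological coefficient of variation 0.242). Contrasts were PFOA in each diet, diet within vehicle and within PFOA, and the interaction; Benjamini-Hochberg adjustment ran over all genes tested. The SE is the log2 change divided by the square root of F. Pairs of libraries within a group differed by more than counting noise (chi-square over its degrees of freedom 8.33 to 146). The series' design names each mouse as a biological replicate. Reads carry no molecular identifiers, so floors of 3 counts cover counting error only. On simulated data for PFOA in CD (14607 genes tested), 43.3% of 1.5-fold, 74.6% of 2-fold and 90.9% of 4-fold changes were recovered, with 7 false calls.

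Every member is accounted for. Values per liver were given for the up to 4 members of each role with the smallest p in PFOA in CD and the up to 2 in PFOA in HFD, for 13 index members and for members called between diets, and of every other list up to 4 genes with the smallest p were eligible. Tdo2, Cyp2e1, Sec61a2, Sar1b, Serpina6 and Cpn1, and the lists of exceptions, were named after their values were seen. The members and the gene lists were chosen with earlier results of these data known. Exon lengths and overlaps came from GENCODE M21 on GRCm38. A planned look at protein ends was not made because no protein sequences were used here. Alternatives were library totals or RLE scaling, DESeq2 1.42.0 (which leaves 17 genes with no adjusted p), other count filters, fits of 2 groups, and leaving out libraries.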

Additional observations from a re-analysis of the deposited data

Results flagged for a closer look

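In 9 of 180 groups of 4 livers (45 members in 4 groups) a liver lay far from the other 3, with a gap to its nearest neighbour over the range above Dixon's 95% critical value for 4 samples. That is 5%, where chance alone gives a rate of about 1 in 20. The members were measured in the same livers and are not independent, so this share does not show whether chance gave the flags. CD_vehicle 1 was the highest liver for Pdia3 (0.867), Ppib (0.912) and Derl3 (0.836). The CD_PFOA group had low livers for Pdia3 in mouse 3 (0.854) and Pdia6 in mouse 2 (0.846). In HFD_vehicle, mouse 3 was highest for Canx (0.909) and lowest for Ostc (0.855). In HFD_PFOA, mouse 2 was highest for Derl1 (0.867) and mouse 4 lowest for Derl3 (0.855). The wide spread of other members in CD_vehicle did not pass this measure where mouse 2 was also low.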

How the results depend on the processing

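The count of members called under PFOA kept within 1.5 times under every alternative run. Leaving out 1 library gave 38 to 43 members and 20.01% to 25.8% of the genes tested in PFOA in CD, and 31 to 40 members and 12.97% to 18.2% of the genes in PFOA in HFD. The lowest count of members in PFOA in HFD was without HFD_PFOA 4, where Hsp90b1, Dnajb9, Creld2, Pdia4, Fkbp2, Xbp1 and Eif2ak3 lost their call. Dnajb9, Xbp1 and Eif2ak3 also lost it without each of HFD_vehicle 2 and HFD_PFOA 3. DESeq2 called 40 members lower and 1 higher of 44 in PFOA in CD, and 34 and 1 in PFOA in HFD. With library totals the split of genes was 2160 higher and 1376 lower in PFOA in CD (1763 and 1893 with TMM), 2052 and 288 in HFD in vehicle (779 and 782), and 6 and 38 in the interaction (10 and 21).

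Between diets the number of genes called moved, and the cause was not tested. The share of the genes tested that passed was 10.4% for HFD in vehicle, 0.0600% for HFD in PFOA and 0.207% for the interaction. Leaving out 1 library gave 5.72% to 14.8% and 0 to 5 members in HFD in vehicle, 0.00650% to 0.365% and 0 members in HFD in PFOA, and 0.0844% to 2.29% and 0 members in the interaction. Each of these highest shares was without CD_vehicle 4. Without CD_vehicle 1 and CD_vehicle 4, HFD in vehicle had 14.8% and 7 members, HFD in PFOA 1.30% and the interaction 4.08%. Fits of 2 groups gave 6.46% for HFD in vehicle and 0.924% for HFD in PFOA. Without the count filter HFD in PFOA had 142 genes higher and 83 lower (0.805% of 27956) and the interaction 131 higher and 159 lower (1.04%), and with DESeq2 they had 94 and 65 (1.06% of 14998) and 78 and 116 (1.29%). In HFD in vehicle 27 of 45 members turned sign without CD_vehicle 1. Of the 10 members followed individually in that comparison, those that turned had log2 changes of Hspa5 0.21, Hsp90b1 0.24, Derl3 2.11, Syvn1 0.62 and Bhlha15 0.89, and without CD_vehicle 1 and CD_vehicle 4 they were 0.22, 0.26, 2.34, 0.72 and 1.89. Leaving out each library in turn, these ran from -0.55 to 0.21 (Hspa5), -0.43 to 0.24 (Hsp90b1), -1.88 to 2.11 (Derl3), -0.57 to 0.62 (Syvn1) and -1.53 to 0.89 (Bhlha15), and Sec61g in PFOA in HFD from -0.85 to 0.025, the last without HFD_vehicle 1. No paired analysis was possible because the replicate numbers come only from the order of the records. Sec61g, Bhlha15 and Derl3 had few counts in most livers, and whether depth limits their calls was not tested.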
